A study of Mus musculus with 6 samples.

Results

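The Nodal, Lefty and activin pathway was followed through 10 genes in bulk RNA-seq of mouse embryonic stem cells (mESCs) and of cardiac precursor cell cultures (CPCCs). They are the ligand genes *Nodal* and *Gdf3*, the secreted inhibitor genes *Lefty1* and *Lefty2*, the co-receptor gene *Tdgf1*, the receptor genes *Acvr1b*, *Acvr2a* and *Acvr2b*, and the SMAD genes *Smad2* and *Smad3*. They were taken by name, and all 10 are listed in both gene count tables, out of 16279 genes listed in either. Earlier results of these data were known when they were chosen, namely that *Lefty1* kept its expression in CPCCs while other mESC genes fell. The levels of these 10 genes in the 2 cell types are therefore given as a description, with fold changes and errors and with no test.

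Both groups were male F1 hybrid cells, labelled C57BL/6 x CAST/EiJ and bred from a C57BL/6J mother and a CAST/EiJ father, with 3 libraries of each. The mESCs came from 3 blastocysts, each taken through a single-cell clone, and were grown in 2i medium with LIF, which holds the MEK inhibitor PD0325901 and the GSK3 inhibitor CHIR99021. The CPCCs were made from these clones by way of embryoid bodies in ascorbic acid and then passaged in medium with EGF and Fgf2, so medium, time in culture and cell type cannot be told apart. CPCCs are mixed cultures, and the label describes the culture rather than 1 cell type. Here S01 to S03 name the mESC libraries and S04 to S06 those of CPCCs, after the columns of the tables, which carry no replicate numbers and so do not tie a culture to its parent clone.

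Library totals were between 6442639 and 6907330 counts in mESCs and between 8468819 and 11436062 in CPCCs. Levels are given as CPM, each count divided by the total of its library and multiplied by 1000000. In 1 library, 3 counts equal between 0.262 and 0.466 CPM, which was taken as the floor of detection. All 8 pluripotency markers used to check the mESC label fell in CPCCs (edgeR's quasi-likelihood test, adjusted p under 0.05), and their summed level lay between 5250 and 5595 CPM in mESCs and at 108, 217 and 295 CPM in S04, S05 and S06. A list of 9 cardiac precursor and muscle genes summed to 384, 126 and 150 CPM in S04, S05 and S06 and to at most 4.63 CPM in mESCs, but *Nkx2-5* had at most 1.40 CPM in a CPCC library and *Tbx5* is missing from the CPCC table. The list of 7 fibroblast and mesenchyme genes summed to between 8553 and 11658 CPM in CPCCs, against 99.6 to 131 CPM in mESCs.

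Nodal is a secreted TGF-beta family ligand that patterns the early embryo and helps to set up mesendoderm, and activins use many of the same receptors. Both ligands assemble a type II receptor with a type I receptor, which phosphorylates SMAD2 and SMAD3, and these enter the nucleus with SMAD4 and partners such as FOXH1. Nodal and GDF3 also need an EGF-CFC co-receptor such as CRIPTO, the product of *Tdgf1*, while activin does not. Lefty proteins are feedback inhibitors of Nodal, made by cells that respond to it, and mouse embryonic stem cells are known to express *Nodal*, *Tdgf1* and both Lefty genes. In bulk RNA, fewer cells that express a gene and less of its RNA per cell cannot be told apart, which holds for every level below.

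*Lefty1* stood above every mESC library in 2 CPCC libraries and below every one of them in the other. The mESC libraries S01 to S03 gave 183, 167 and 131 CPM, while the CPCC libraries S04 to S06 gave 32.1, 204 and 340 CPM. The range of the CPCC libraries enclosed that of the mESC libraries. Means were 161 ± 27.0 CPM in mESCs and 192 ± 155 CPM in CPCCs (SD, n = 3 each), and the fitted log2 fold change, positive where CPCCs are higher, was 0.26 (standard error 0.59). Its direction rested on the CPCC library S06, as it was -0.38 without S06, against 0.77 without S04 and 0.19 without S05.

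*Lefty2*, the neighbouring copy, was far lower in every CPCC library. S01 to S03 gave 355, 283 and 373 CPM, against 11.4, 32.8 and 52.2 CPM for S04 to S06. No CPCC library came near the mESC range, and the log2 fold change was -3.38 with a standard error of 0.43. The mean in mESCs was 10.5-fold that in CPCCs.

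*Lefty1* and *Lefty2* lie 35918 bases apart in the GENCODE M21 annotation, on the plus strand of chromosome 1. The tables place *Lefty1* at chr1:180935022-180938402 and *Lefty2* at chr1:180893108-180899108 on GRCm38. Their coding sequences are 1107 bases each and differed at 90 aligned positions, an identity of 91.9% (GENCODE M21), so it matters whether reads can be told apart. The pair of 90-base coding stretches printed here shows where they can, and comes from the C57BL/6J reference and not from the cells. The stretch with the most differences, chr1:180935144-180935233 in *Lefty1* and chr1:180893218-180893307 in *Lefty2*, held 27, given in capitals:
Lefty1: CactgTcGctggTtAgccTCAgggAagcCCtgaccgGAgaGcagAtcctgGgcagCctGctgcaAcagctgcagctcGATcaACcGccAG
Lefty2: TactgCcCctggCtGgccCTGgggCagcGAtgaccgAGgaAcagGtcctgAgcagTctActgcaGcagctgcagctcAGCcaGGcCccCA

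Of the 100-base windows of the *Lefty1* transcripts, 97 of 1657 (5.85%) also occur in *Lefty2*, where they are 3.86% of the windows. The paper describes paired reads longer than 100 bases, so these shares of windows are not shares of reads that cannot be placed. The longest identical run of the coding sequences was 140 bases. A read pair that matches both genes throughout cannot be placed by its letters. The counts of each gene are therefore uncertain, by an amount that also depends on the level of the other gene. The counts of both were not whole in 5 of the 6 libraries, while their sum was whole within 0.01 counts in all 6. In S04, for example, *Lefty1* had 366.8 counts and *Lefty2* 130.2, which sum to 497 counts. The sum of the pair does not depend on how shared reads were divided.

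Summed over both genes, the pair had 538, 450 and 504 CPM in S01 to S03, against 43.5, 237 and 393 CPM in S04 to S06. The sum was lower in each CPCC library than in each mESC library, in contrast to *Lefty1* alone. *Lefty1* was the smaller part of the pair in each mESC library and the larger part in each CPCC library. *Lefty1* took 34.1%, 37.2% and 25.9% of the counts of the pair in S01 to S03, against 73.8%, 86.1% and 86.7% in S04 to S06. The 95% Wilson interval was widest in S04, from 69.8% to 77.5%, below those of S05 and S06, and covers counting error only. Mean shares were 32.4% ± 5.81 in mESCs and 82.2% ± 7.28 in CPCCs (SD, n = 3 each), a difference of 49.8 percentage points that lay between 46.6 and 54.0 when 1 library was left out. The ratio of *Lefty1* to *Lefty2* counts was 2.82 in S04 against 6.21 and 6.52 in S05 and S06. With counts taken per base of exon the mean shares were 41.5% in mESCs and 87.2% in CPCCs.

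**Figure D1:**
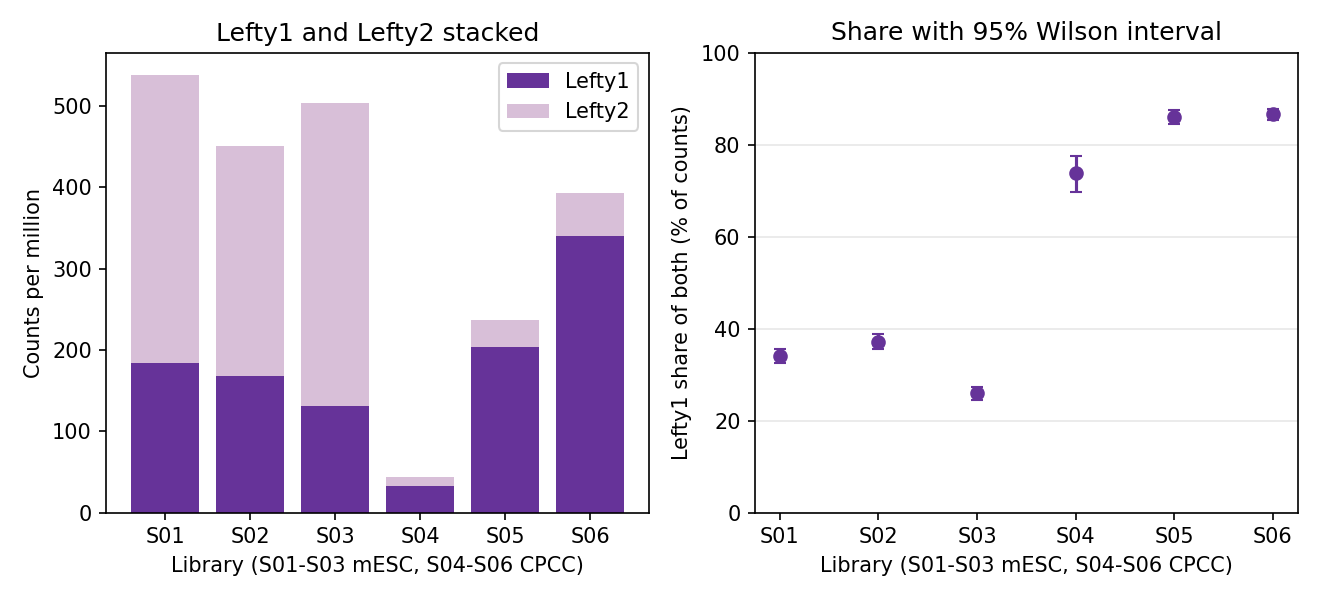
Left, CPM of *Lefty1* (dark) and *Lefty2* (light) stacked for each library. Right, the *Lefty1* share of the counts of both, with 95% Wilson intervals, which is between 25.9% and 37.2% in the 3 mESC libraries and between 73.8% and 86.7% in the 3 CPCC libraries.

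*Nodal* (chr10:61417972-61425339), which encodes the ligand itself, had 174, 186 and 181 CPM in S01 to S03, against 13.5, 30.1 and 57.4 CPM in S04 to S06. The mESC libraries were nearly alike, with the highest 1.07-fold the lowest, and every CPCC library lay below them. The log2 fold change was -2.41 with a standard error of 0.39, and the mean in mESCs was 5.36-fold that in CPCCs.

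*Gdf3* (chr6:122605403-122610088) encodes a related ligand that also signals through CRIPTO. It had 430, 446 and 348 CPM in S01 to S03, against 7.00, 18.2 and 44.6 CPM in S04 to S06. Of the 10 genes it had the lowest log2 fold change, -4.13 with a standard error of 0.53, which was -4.94 without S06.

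*Tdgf1* (chr9:110939608-110946159), the co-receptor gene, was the most abundant of the 10 in mESCs. It had 985, 939 and 1139 CPM in S01 to S03, against 35.9, 82.0 and 129 CPM in S04 to S06. The log2 fold change was -3.61 with a standard error of 0.37. The pseudogene *Tdgf1-ps1* shares 3.17% of its 100-base windows, and how many reads fell there is not known.

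Among the receptors, the type II receptor genes *Acvr2a* and *Acvr2b* differed in opposite directions. *Acvr2b* (chr9:119402178-119442149) had 93.8, 97.4 and 89.2 CPM in S01 to S03, against 18.4, 46.2 and 67.7 CPM in S04 to S06. *Acvr2a* (chr2:48814109-48903265) had 10.4, 14.7 and 10.6 CPM in S01 to S03, against 31.6, 28.4 and 34.3 CPM in S04 to S06. Neither gene had a CPCC library within its mESC range, with log2 fold changes of -1.07 (standard error 0.35) and 1.46 (standard error 0.24). Without the CPCC library S06 the value for *Acvr2b* was -1.45, and without S04 it was -0.71. Exons of *Orc4* overlap 7.84% of the *Acvr2a* exons on the opposite strand, and the use of strand in counting is not given in the sources used here, so an unknown part of the *Acvr2a* counts may come from *Orc4*.

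*Acvr1b* (chr15:101174125-101212602) encodes ALK4, the type I receptor for Nodal and activin, and its counts were low and uneven. It had 21, 1 and 16 counts in S01 to S03, against 13, 30 and 2 counts in S04 to S06. The libraries S02 and S06 were under the floor of 3 counts while the others of the same cell type had at least 13 counts, so any difference between cell types was within the spread between libraries. The log2 fold change of -0.16 had a standard error of 1.03.

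*Smad2* and *Smad3* encode the receptor-activated SMADs of this pathway. *Smad2* (chr18:76241701-76311748) had 96.4, 99.3 and 125 CPM in S01 to S03, against 131, 95.3 and 118 CPM in S04 to S06. The libraries of the cell types overlapped, and the log2 fold change was 0.17 with a standard error of 0.20. *Smad3* (chr9:63646767-63757995) had 19.4, 17.8 and 25.8 CPM in mESCs, against 101, 70.1 and 64.5 CPM in CPCCs, with no overlap. Its log2 fold change was 1.98 with a standard error of 0.28, a mean in CPCCs 3.74-fold that in mESCs.

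Levels of different genes were compared per kilobase of exon (CPM per kb), with the exon lengths of GENCODE M21. The gene ends in the tables minus those of that annotation were 7154 bases for *Acvr2b*, 785 for *Smad2* and -1082 for *Acvr1b*, so the lengths behind their counts may differ. In mESCs *Smad3* stood at 3.79 ± 0.76 CPM per kb against 12.2 ± 1.80 for *Smad2*, and in CPCCs at 14.2 ± 3.57 against 13.1 ± 2.06 (SD, n = 3 each). Per length, *Smad3* was thus 0.284 to 0.326 times *Smad2* in the mESC libraries and 0.867 to 1.22 times in the CPCC libraries. The ratio of *Acvr2a* to *Acvr2b* per length was between 0.0768 and 0.104 in mESCs and between 0.350 and 1.19 in CPCCs, with the highest value in S04.

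**Figure D2:**
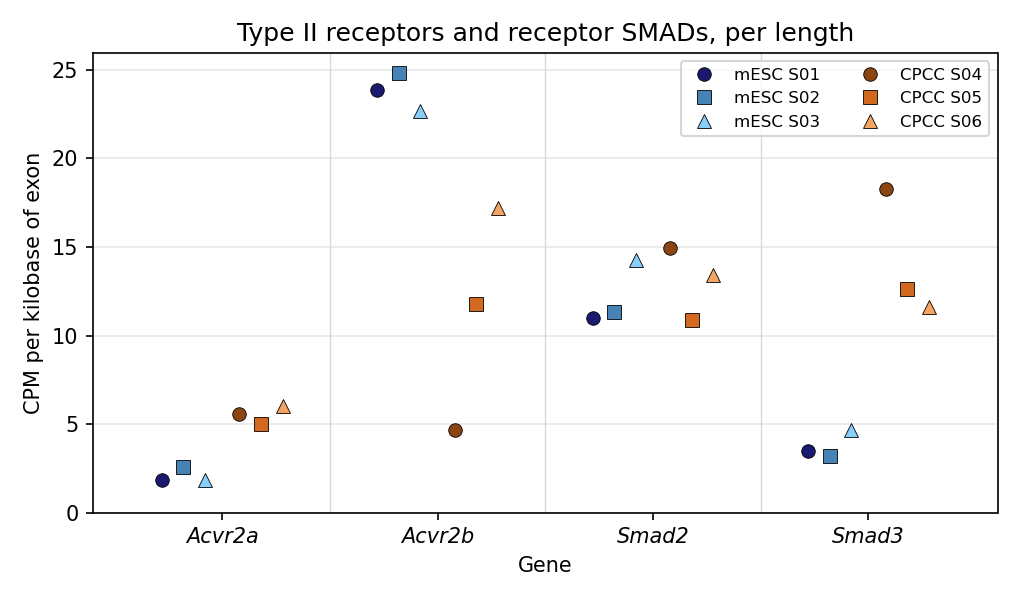
CPM per kilobase of exon for the type II receptor genes *Acvr2a* and *Acvr2b* and for *Smad2* and *Smad3*, 1 point per library (blue mESCs, orange CPCCs). *Smad3* lies below *Smad2* in all 3 mESC libraries and within 0.867 to 1.22 times *Smad2* in the CPCC libraries.

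In order of level per length, mESCs had *Tdgf1* (389 ± 40.0 CPM per kb), *Gdf3* (168 ± 21.7), *Lefty2* (129 ± 18.3), *Lefty1* (91.3 ± 15.4) and *Nodal* (86.0 ± 2.98), followed by *Acvr2b* (23.8 ± 1.05), *Smad2*, *Smad3*, *Acvr2a* (2.09 ± 0.42) and *Acvr1b* (SD, n = 3 each). The values of *Lefty1* and *Nodal* overlapped, and those of *Gdf3* and *Lefty2* all but met. In CPCCs *Lefty1* came first by mean with 109 ± 87.9 CPM per kb, ahead of *Tdgf1* with 31.4 ± 17.8 (SD, n = 3 each). *Lefty1* was above *Tdgf1* in each of the 3 libraries. In S04 it was level with *Smad3* (18.2 and 18.3 CPM per kb), so its first place rested on S05 and S06. *Nodal* (16.1 ± 10.6), *Smad3*, *Smad2*, *Lefty2* (12.3 ± 7.83), *Acvr2b* (11.2 ± 6.29) and *Gdf3* (9.61 ± 7.97) followed, and the libraries of these neighbours overlapped.

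**Figure D3:**
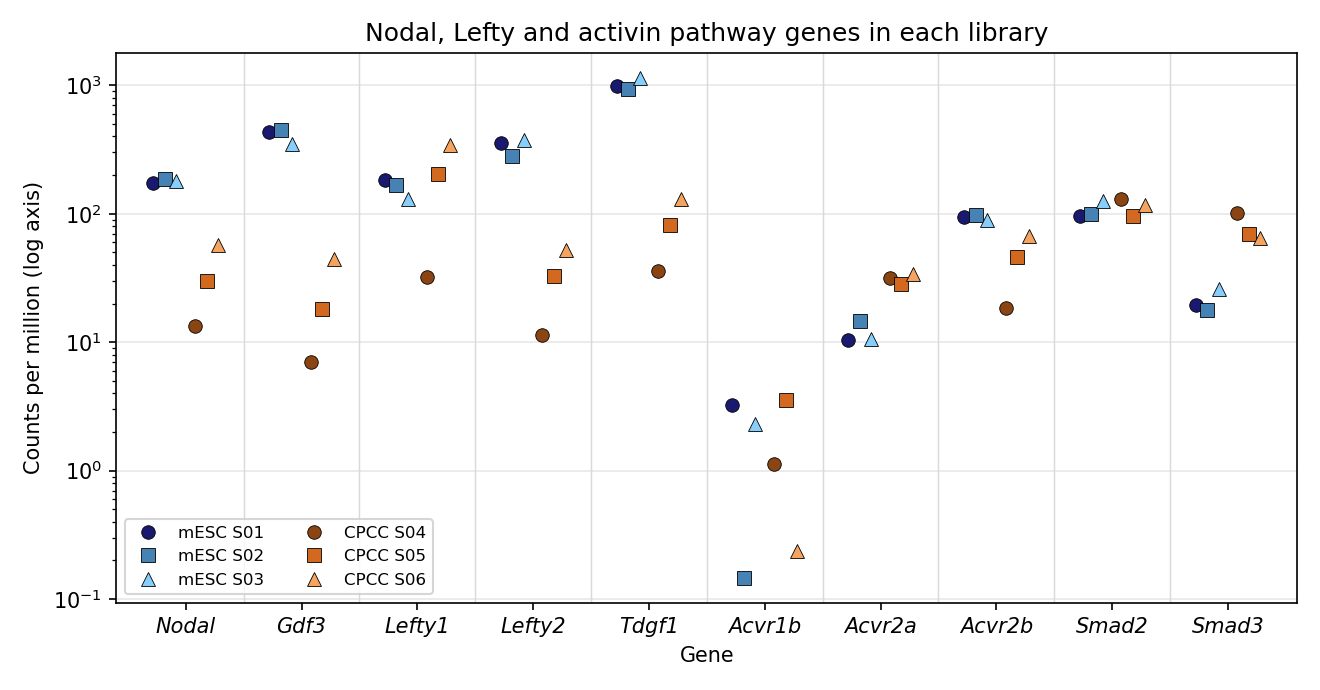
CPM of the 10 genes in each library, on a log axis (blue mESCs S01 to S03, orange CPCCs S04 to S06). *Nodal*, *Gdf3*, *Lefty2*, *Tdgf1* and *Acvr2b* are lower in all CPCC libraries, *Acvr2a* and *Smad3* are higher in all of them, and *Lefty1* runs from 32.1 to 340 CPM in CPCCs.

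In all, the CPCC libraries lay below the mESC libraries without overlap in 5 of the 10 genes and above them in 2, while 3 overlapped (*Lefty1*, *Acvr1b* and *Smad2*). Of the 12471 genes that passed the filter on low counts, among them all 10, 69.3% had no overlap, 35.5% with CPCCs below and 33.8% above. The median log2 fold change was -0.61 over the 10 genes and 0.031 over all genes tested. As the genes were chosen with this contrast in view, nothing is read from these counts.

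The spread among CPCC libraries divided the genes in another way, also given as a description. In *Lefty1*, *Gdf3*, *Lefty2*, *Nodal*, *Acvr2b* and *Tdgf1*, S04 was lowest and S06 highest, and S06 had 10.6, 6.38, 4.59, 4.26, 3.68 and 3.60 times the level of S04. *Acvr2a*, *Smad2* and *Smad3* had their highest CPCC library at 1.21, 1.38 and 1.57 times the lowest. Over all genes tested with counts in every library, the median of this ratio was 1.55 in CPCCs and 1.36 in mESCs. In mESCs the 9 genes other than *Acvr1b* had ratios between 1.07 and 1.45. The order S04, S05, S06 from low to high held in 6 of the 10 genes and in 35.3% of the genes tested. Among the tested genes with all CPCC libraries below all mESC libraries it held in 51.7%. A 10-fold or higher level in S06 than in S04 was found in 1.54% of the genes tested.

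Pluripotency markers moved with this spread. S04 was the lowest CPCC library in 7 of the 8 markers, and in those 7 S06 had between 3.61 and 9.67 times the level of S04. *Klf4* went the other way, with 0.578 times. Summed, the markers kept 1.98%, 3.99% and 5.43% of their mESC mean in S04, S05 and S06. *Lefty1* kept 20.0%, 127% and 212% of its mESC mean in the same libraries, and *Nodal* kept 7.47%, 16.7% and 31.8%. *Lefty2* kept 3.38%, 9.74% and 15.5%, and *Tdgf1* kept 3.52%, 8.03% and 12.7%. In S06, the highest share kept by any of the 8 markers was 25.4%, in *Sox2*. The sum of the 9 cardiac genes was highest in S04, where the pluripotency sum was lowest. Most of it came from *Actc1* and *Tnnt2*, with 247 and 90.2 CPM in S04. Of this list only *Gata4* was highest in S06, with 1.75, 2.71 and 5.79 CPM in S04 to S06. Of the 3 cardiac genes tested, 1 was called higher in CPCCs and 0 lower (edgeR). The 7 primitive streak and mesendoderm genes summed to 6.73, 14.3 and 21.3 CPM in S04, S05 and S06 against 87.4 to 106 CPM in mESCs. Of that list, *Gsc* and *Mixl1* are missing from the CPCC table and *Mesp1* from both, while *Fgf8* is in the CPCC table alone, with 0, 4.82 and 3.66 CPM. The 9 endoderm genes summed to 63.6, 61.5 and 57.3 CPM in S04, S05 and S06 and to at most 32.7 CPM in mESCs, with *Ttr* and *Afp* in neither table. Of the 3 endoderm genes tested, *Foxa2* and *Gata6* were higher in CPCCs and *Hhex* lower (edgeR). *Gata6* had 35.2, 7.29 and 7.56 CPM in S04 to S06, highest in S04, where *Foxa2* was lowest. The mean of *Hhex* was 23.4 CPM in mESCs, most of the summed level there, and 6.03 CPM in CPCCs. The part of these cell types in the levels of the pathway genes was not tested.

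**Figure D4:**
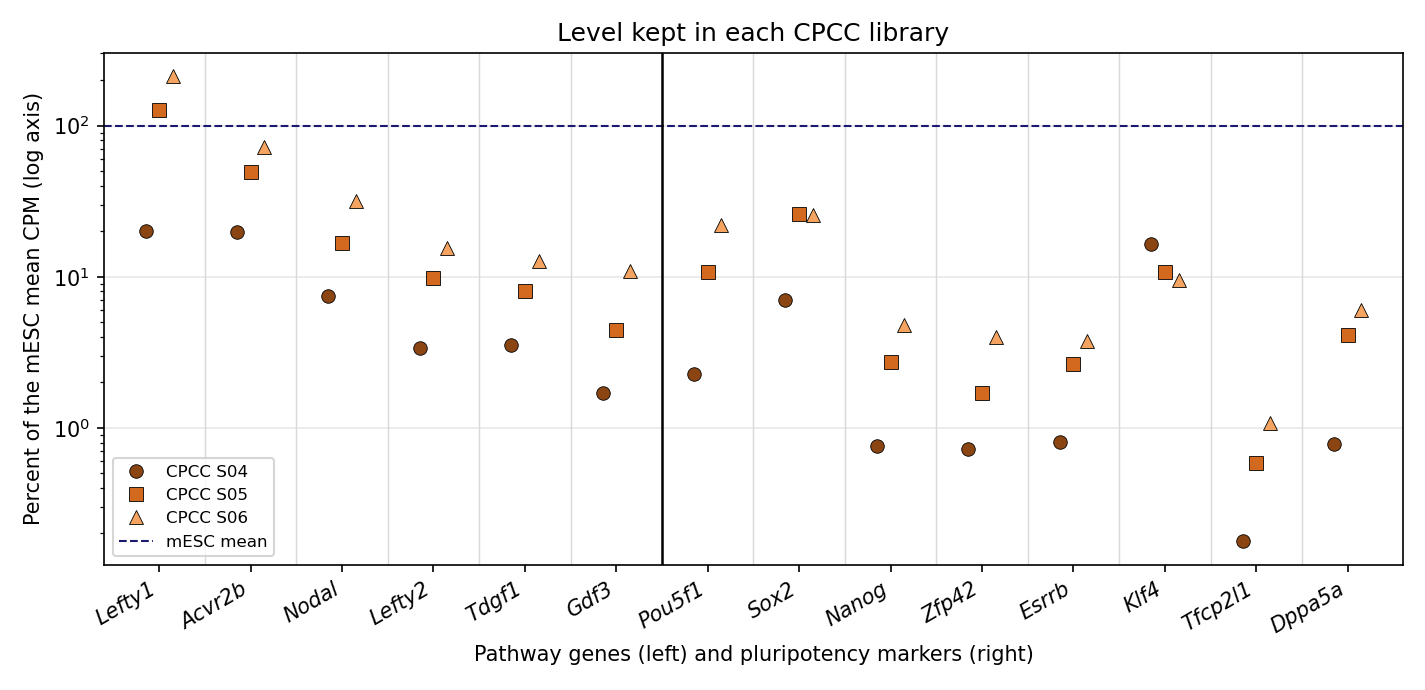
Level in each CPCC library as a percentage of the mESC mean, on a log axis, for 6 pathway genes (left of the line) and 8 pluripotency markers (right). *Lefty1* reaches 127% in S05 and 212% in S06, while no pluripotency marker exceeds 26.0% in any CPCC library.

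Genes whose profile over the 6 libraries was most like that of *Lefty1* were sought by the root mean square difference of log2 CPM, with each gene centred on its own mean. The closest of the 12471 genes were *Prelid3a* (0.21), *Bspry* (0.25), *Rasd2* (0.25), *Cdc25b* (0.26) and *Ccdc85c* (0.27), where the median over all genes was 1.15. *Cdc25b*, a phosphatase gene that promotes entry into mitosis, had 34.8, 39.4 and 26.2 CPM in S01 to S03, against 9.97, 43.0 and 62.9 CPM in S04 to S06. The other 4 genes rested on 16 counts or fewer in S04. *Acvr2b* was the closest of the 10 genes to *Lefty1* (0.70), ahead of *Smad2* (1.16) and *Nodal* (1.28), and *Lefty2* was at 1.73. These are descriptions over 6 libraries, of which 2 groups of 3 share a cell type.

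Other genes of the pathway were taken from a list of 41 set by role, and here the comparison of CPCCs with mESCs was tested. Earlier results of these data were known when this list was set too, so its calls describe these libraries and are no independent evidence. With edgeR's quasi-likelihood test and p adjusted by Benjamini-Hochberg over all genes tested, at a threshold of 0.05, 15 of the 32 genes tested were higher in CPCCs and 8 lower, and 9 did not pass. Over all genes, 31.7% were called higher and 29.7% lower, 61.4% in either direction. The median log2 fold change of the 32 genes was 0.54. Of the other 9 genes, 3 were in the CPCC table alone, 3 in the mESC table alone and 3 (*Inhbe*, *Mstn* and *Acvr1c*) in neither table. Leaving out 1 library gave from 13 to 16 genes higher and from 6 to 8 lower.

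Of 6 ligand genes, 3 were tested and 2 rose. *Inhba*, which encodes the beta A subunit of activin A, is missing from the mESC table and had 638, 295 and 205 CPM in S04, S05 and S06. Its mean of 379 ± 229 CPM (SD, n = 3) was at least 849-fold higher than 3 counts per library in mESCs. *Inhbb*, the beta B subunit gene, rose from 2.07 ± 1.10 to 11.4 ± 9.59 CPM (SD, n = 3 each), and so by 2.58 on the log2 scale (standard error 0.69, edgeR's adjusted p = 0.0103). Without S04 it rose by 1.51. *Gdf11*, a ligand gene of the same receptor class, rose by 2.47 on the log2 scale (standard error 0.43, adjusted p = 0.000976, edgeR). *Gdf1* did not pass, with 1.58 ± 0.51 and 4.09 ± 2.18 CPM (SD, n = 3 each).

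The antagonists made up 9 genes, of which 7 could be tested and 5 rose and 1 fell. *Fst* encodes follistatin, which binds and blocks activin, and its level in every CPCC library was at least 127 CPM against at most 4.63 CPM in mESCs. The related *Fstl3* had 0.78, 1.62 and 4.92 CPM in S01 to S03, against 71.6, 63.4 and 39.9 CPM in S04 to S06. It rose by 4.64 on the log2 scale (standard error 0.56, edgeR's adjusted p = 0.000128), and by 5.67 without S03. For *Fst* the rise was 5.25 (standard error 0.25, edgeR's adjusted p = 1.61e-06). The paper had already shown *Fst* as a marker of cardiac stem and progenitor cells in these bulk data, so this rise was known beforehand. *Tmeff1*, whose product can bind CRIPTO, rose by 1.33 on the log2 scale (standard error 0.37, edgeR's adjusted p = 0.0125), a call lost without S02, and by 0.80 without S04. *Bambi*, a pseudoreceptor gene, fell by 0.95 (standard error 0.23, adjusted p = 0.00675, edgeR). *Cer1* and *Inha*, the genes of the Nodal antagonist Cerberus and of the inhibin alpha subunit, are listed only for CPCCs. *Inha* was at least 7.41-fold higher there, and *Cer1* was at or near the floor, with 0 counts in S04 and S05.

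Genes of the proprotein convertases that cleave ligand precursors moved in opposite directions. *Furin* had 9.00, 7.80 and 4.49 CPM in S01 to S03, against 52.6, 47.5 and 49.8 CPM in S04 to S06, which is a rise by 2.88 on the log2 scale (standard error 0.28, edgeR's adjusted p = 4.17e-05). *Pcsk6*, which encodes PACE4, had 144, 131 and 173 CPM in S01 to S03, against 16.3, 15.2 and 19.6 CPM in S04 to S06, and fell by 3.08 on the log2 scale (standard error 0.20, edgeR's adjusted p = 4.38e-06). *Pcsk5* rose by 1.60 on the log2 scale (standard error 0.34, adjusted p = 0.00305, edgeR). Unlike *Nodal* and *Tdgf1*, *Pcsk6* was nearly level across the CPCC libraries. Of the other receptors, *Tgfbr3*, the betaglycan gene, fell by 2.00 (standard error 0.42, adjusted p = 0.00298, edgeR), and *Cfc1*, the other EGF-CFC co-receptor gene, is listed only for mESCs, at 2.77 ± 1.17 CPM (SD, n = 3), where CPCCs were at least 8.57-fold lower.

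Among 8 SMAD partners and regulators, 2 were higher, 1 lower and 5 did not pass. The ubiquitin ligase genes *Smurf1* and *Smurf2* rose by 1.98 (standard error 0.27, adjusted p = 0.000242) and 0.89 (standard error 0.19, adjusted p = 0.00344) on the log2 scale in edgeR's test. *Smad4*, the common partner, had 121 ± 21.6 and 147 ± 42.0 CPM, and *Smad7*, an inhibitory SMAD, 44.4 ± 8.26 and 47.0 ± 27.6 CPM (SD, n = 3 each). *Zfyve9*, which encodes a SMAD anchor, fell by 0.68 (standard error 0.25, adjusted p = 0.0412, edgeR), a call lost in 4 of the 6 fits without 1 library.

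Nuclear partners and repressors were divided, 2 higher and 3 lower of 7 tested. *Skil*, which encodes the SMAD corepressor SnoN, rose by 2.15 on the log2 scale (standard error 0.27, adjusted p = 0.000158, edgeR) and its relative *Ski* by 0.79 (standard error 0.15, adjusted p = 0.00158, edgeR). The homeobox repressor genes *Tgif1* and *Tgif2* fell by 0.70 and 0.90 (standard errors 0.18 and 0.28, adjusted p = 0.00795 and 0.0203, edgeR), the second a call lost without S01 or without S02. *Eomes*, a T-box partner of SMADs, fell by 1.80 (standard error 0.37, adjusted p = 0.00257, edgeR). *Foxh1* had 4.19, 6.33 and 7.96 CPM in S01 to S03, against 1.49, 0.94 and 4.84 CPM in S04 to S06, and did not pass (adjusted p = 0.0875, edgeR). *Mixl1*, a mesendoderm homeobox gene with a mean of 1.76 ± 1.03 CPM in mESCs (SD, n = 3), was at least 5.45-fold lower in CPCCs.

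Known target genes also went both ways. *Pmepa1*, a feedback target of TGF-beta and activin signals, had 44.7, 63.1 and 73.5 CPM in S01 to S03, against 548, 573 and 442 CPM in S04 to S06, and rose by 3.17 on the log2 scale (standard error 0.24, edgeR's adjusted p = 1.08e-05). *Foxa2* rose by 4.94 on the log2 scale (standard error 0.90, adjusted p = 0.00132, edgeR), with 5.25, 45.6 and 17.5 CPM in S04, S05 and S06 and at most 1.45 CPM in mESCs, and by 3.92 without S05. The mesoderm gene *T* (Brachyury) fell by 3.16 (standard error 0.41, adjusted p = 0.000192, edgeR), and *Gsc*, at 10.8 ± 0.67 CPM in mESCs (SD, n = 3), was at least 33.4-fold lower in CPCCs. Like *Lefty1* and *Nodal*, *T* was lowest in S04 and highest in S06 among CPCCs.

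**Figure D5:**
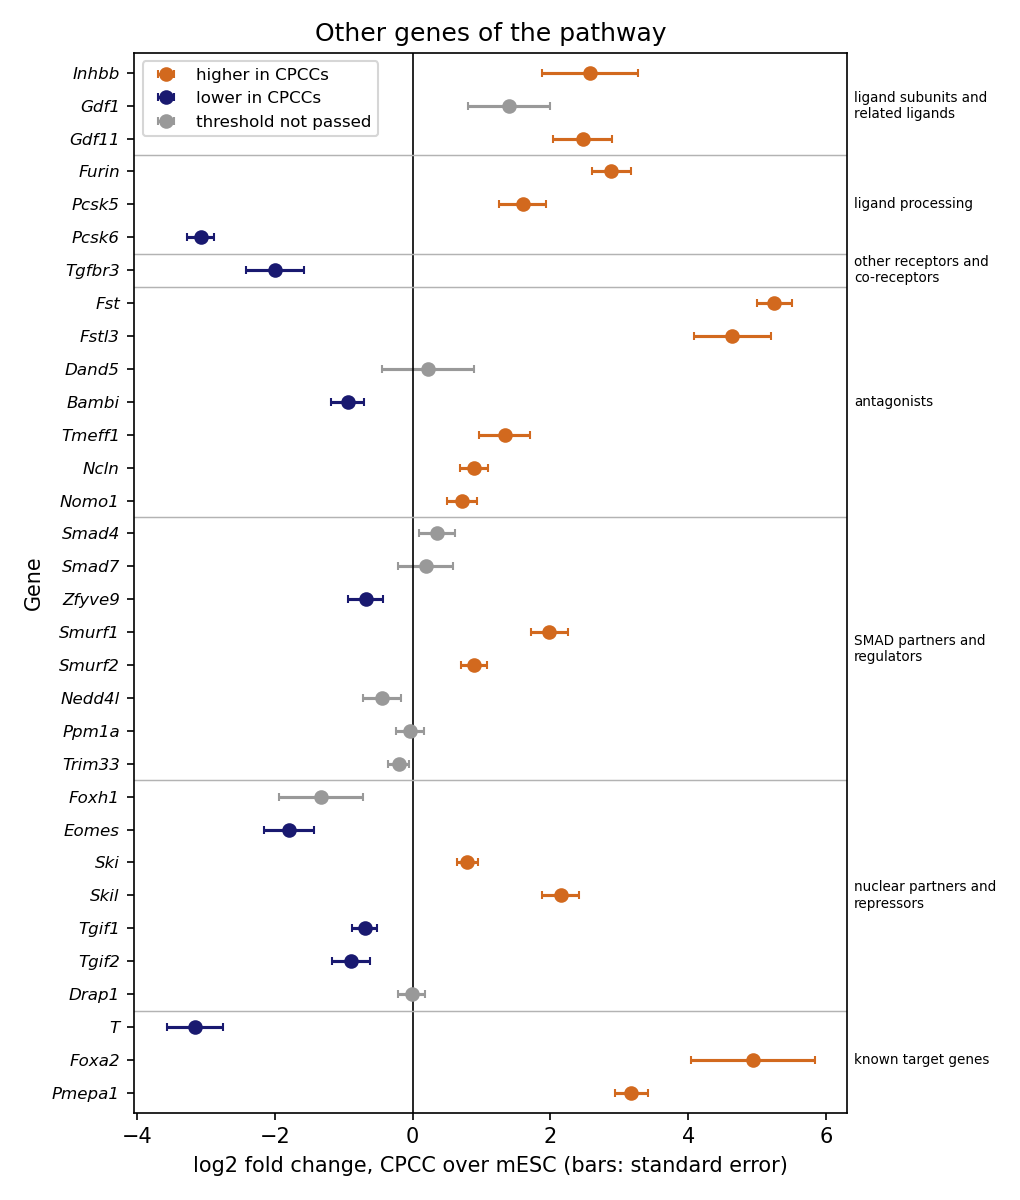
Log2 fold change (CPCC over mESC) of the 32 tested genes of the wider pathway list, with standard errors, grouped by role. Of these, 15 were called higher (orange) and 8 lower (blue) at an adjusted p under 0.05, and 9 (grey) did not pass.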

How the data were processed

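Polyadenylated RNA of 3 mESC and 3 CPCC cultures was made into SMART-Seq v4 libraries by the authors and sequenced as paired reads. Each cell type has a table of estimated counts that the authors deposited without normalization, with both alleles in 1 count. In each library 17.8% to 21.4% of values were not whole. The submitters' processing notes name STAR 2.7 and the build mm10. Partek Flow is named for the study's single-cell libraries. For these bulk tables the counter and its use of strand are not given in the sources used here. Each table holds only genes with at least 10 counts over its libraries.

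The 10 genes and all lists were chosen with earlier results of these data known. Counts were rounded, the 13001 genes in both tables were filtered with filterByExpr, which left 12471, and edgeR 4.0.16 (R 4.3.3) with TMM factors gave the quasi-likelihood test, with p adjusted by Benjamini-Hochberg and a threshold of 0.05. Standard errors were derived by dividing the log2 fold change by the root of its F statistic. p-values set the difference between the cell types against the spread between these cultures. The fit treats the cultures as independent, although the CPCCs were made from the mESC clones. Genes absent from 1 table got no test, and their fold is a bound against 3 counts per library. Intervals and floors cover counting error only. The fits were tested on simulated counts with 200 changed genes and the same spread in both cell types. Far more genes were called in the data, so that test does not stand for this contrast. Exon lengths and sequences came from GENCODE M21 (GRCm38), which can differ from the annotation used for counting.

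All 10 genes were named. Of the wider list, up to 3 genes per role and direction with the largest change past the threshold, or with the largest bound, were named. *Gdf1*, *Smad4*, *Smad7* and *Foxh1* were added after their values were seen, and genes of the marker lists were named where a list is described. A gene of the wider list is not reported here and enters none of its counts. Alternatives were DESeq2 1.42.0, other normalizations and filters, missing genes filled with 0 or 3 counts, and each library left out. Figures were drawn with matplotlib 3.10.9.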

Additional observations from a re-analysis of the deposited data

How the results depend on the processing

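The log2 fold change of *Lefty1* lay between 0.19 and 0.34 under DESeq2, upper-quartile scaling, library totals alone, both other filters and both fills of missing genes, and between -0.38 and 0.77 when 1 library was left out. It was -1.15 when *Lefty1* and *Lefty2* were summed before the fit, which was added with the data in view and which by its construction adds the fall of *Lefty2*. The 116 values of the other 9 genes under alternatives moved by less than 1 SD between libraries, but those of *Acvr1b* ran from -1.28 to 0.45 with 1 library left out. The 7656 genes called became 6536 to 7895 with 1 library left out. Of 270 values of the named wider pathway genes that were tested, 9 no longer passed, in *Tgif2*, *Tmeff1* and *Zfyve9*, and no direction changed. No paired analysis was possible because the columns of the tables carry no replicate numbers. Depth limits *Cer1* and other genes near 3 counts per library.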
